A study of Mus musculus with 8 samples.

Results

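Expression of 10 genes of interleukin 6 (IL-6) family signalling was read from liver RNA of mice with ConA hepatitis. They were 4 receptor chains (Il6ra, Il6st, Osmr and Lifr), the transcription factor Stat3, and 5 genes induced by STAT3 (Socs3, Bcl3, Steap4, Cebpd and Pim1). The genes were chosen by name from the deposited table, with earlier results of these data known, and all 10 were found among its 21899 genes. All 10 also passed the filter on low counts, which kept 11380 genes for testing. The samples were 4 liver libraries of P2X4R-deficient mice and 4 of wild-type mice, all given ConA and all profiled at 8 h. ConA is concanavalin A, a lectin that activates T cells and causes hepatitis in mice. P2X4R is the ATP-gated channel encoded by P2rx4. The deficient genotype is called a knockdown in the sample labels and P2X4R-/- in the series description, with no statement of which part of the gene was altered. Animal strain, age and sex are not in the labels, and livers without ConA were not analysed here. The labels do not tie libraries to individual mice, and the p-values describe the spread among these 8 libraries, which may be technical.

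IL-6 family cytokines signal through the shared chain gp130, encoded by Il6st, together with a chain that is particular to the cytokine. The receptor activates JAK kinases, which phosphorylate STAT3, and STAT3 then induces its own inhibitor SOCS3 among other genes. In the liver this pathway drives the acute phase response of hepatocytes.

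Library totals ran from 15445285 to 16604190 counted reads. Levels compared between libraries are CPM, counts scaled to library size, here with TMM factors. Levels compared between genes are FPKM, which also corrects for gene length. A gene said to have fallen or risen by a value did so by that value on the log2 scale, deficient minus wild type. P2rx4 (ENSMUSG00000029470) was at 17.3, 24.9, 27.0 and 29.6 CPM in the deficient libraries 1 to 4 and at 43.8, 62.4, 59.7 and 57.6 CPM in the wild-type libraries 1 to 4. The groups did not overlap, and P2rx4 had a log2 fold change of -1.18 (SE 0.19, adjusted p in edgeR 0.00481). The deficient libraries still held 286, 401, 467 and 516 P2rx4 reads. Hepatocyte markers matched the labelled tissue, with 9 of 10 listed genes in the table and a summed level of 113333 to 126340 CPM in wild-type and 74923 to 105098 CPM in deficient livers. Most of that sum was Alb, which encodes albumin, at a mean of 88865 CPM in wild-type and 67888 CPM in deficient livers. Of those 9 markers all were lower in deficient livers and 1, Cps1, passed the test, against 10.6% of all genes tested that fell.

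Of the 10 genes, 4 fell in deficient livers at an edgeR adjusted p under 0.05, and 0 rose, against 19.9% of all genes tested that passed in either direction, 10.6% that fell and 9.27% that rose. At an unadjusted p under 0.05, 6 were lower and 0 higher. DESeq2 and the limma test on log2 FPKM also gave 4 that fell and 0 that rose. The genes that fell were Socs3, Pim1, Lifr and Il6st. For the same 4 the groups did not overlap, which was so for 24.9% of all genes tested, 12.3% in the lower direction. The median log2 fold change of the 10 genes was -0.56, against -0.00147 over all genes tested. The count of 4 depended on particular libraries, and was 2 without deficient 3 or without wild type 3.

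**Figure D1:**
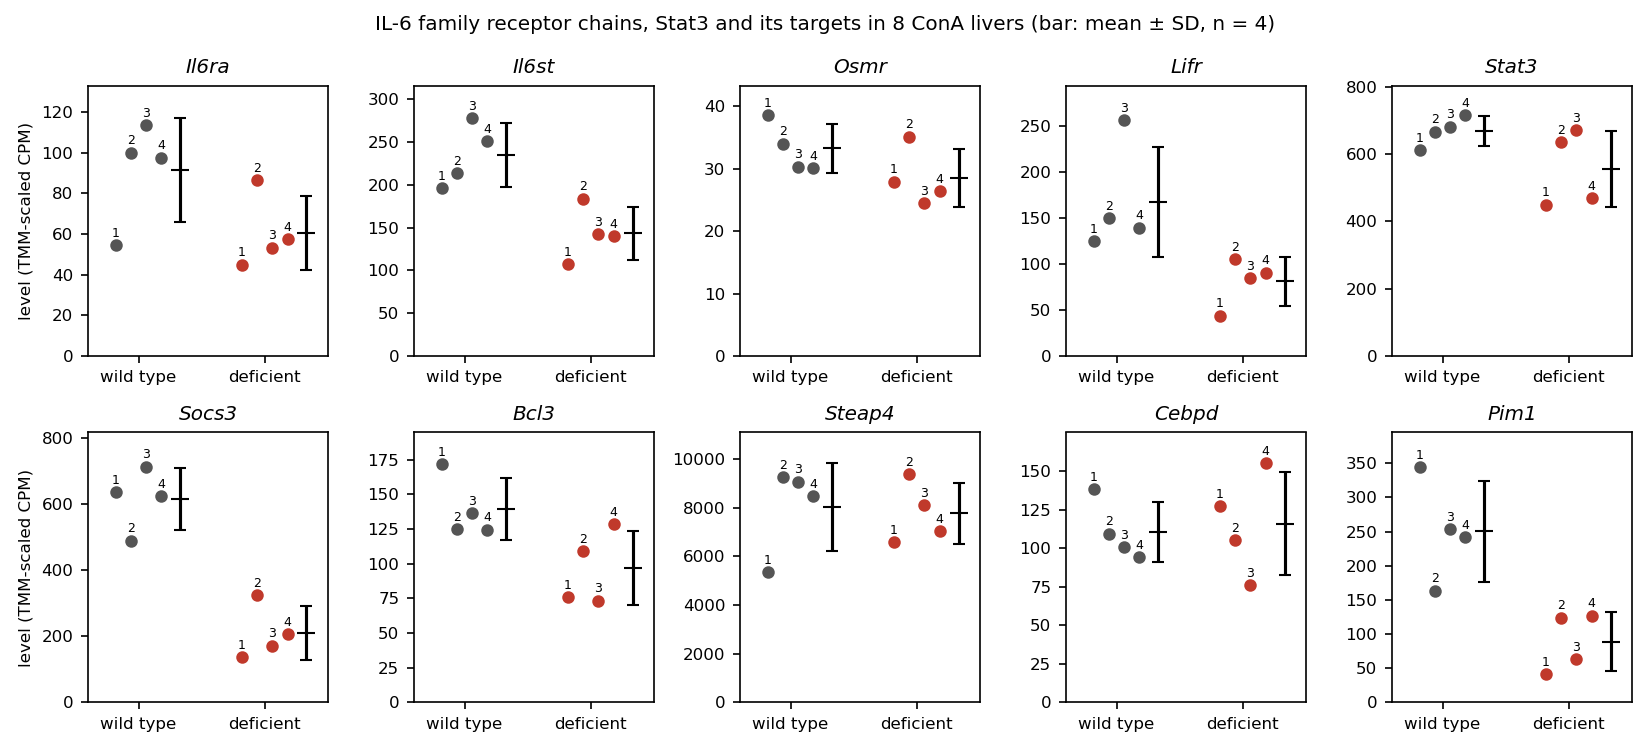
Level of each of the 10 genes in TMM-scaled CPM (vertical axes from 0, 1 scale per gene) in 4 wild-type (grey) and 4 P2X4R-deficient (red) libraries. The library number stands above each point and the mean ± SD beside each group. The deficient libraries lie below all wild-type libraries for Il6st, Lifr, Socs3 and Pim1, and the groups overlap for the other 6 genes.

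Per length, the 10 genes spanned a wide range. In wild-type livers Steap4 was highest at 2407 ± 475 FPKM (SD, n = 4), followed by Socs3 at 202 ± 32.8 FPKM. Pim1 at 71.4 ± 23.6, Stat3 at 66.6 ± 3.86 and Bcl3 at 53.7 ± 10.6 FPKM followed, with library ranges that overlapped from each to the next. Cebpd stood below them at 28.1 ± 5.94 FPKM. The receptor chains were the least abundant, with Il6st at 20.1 ± 2.83, Lifr at 14.7 ± 4.88 and Il6ra at 9.98 ± 2.54 FPKM overlapping in turn, and Osmr lowest at 2.62 ± 0.396 FPKM. In deficient livers Steap4 remained first, at 2584 ± 357 FPKM. Socs3 was still next, at 75.5 ± 26.5 FPKM, but there its range overlapped that of Stat3 at 61.2 ± 12.3 FPKM. Pim1 stood sixth in deficient livers, at 27.5 ± 12.9 FPKM, after Stat3, Bcl3 and Cebpd, with library ranges that overlapped from each to the next.

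Among the receptor chains, the shared chain and the LIF receptor chain were lower in deficient livers. Il6st (ENSMUSG00000021756; chromosome 13, 112600604 to 112646620 on the plus strand; the genome build is not given in the sources used here) encodes gp130. It was at 107, 184, 142 and 139.7 CPM in deficient libraries 1 to 4 and at 196, 214, 278 and 251 CPM in wild-type libraries 1 to 4. The highest deficient library, number 2, lay just under the lowest wild-type library. The log2 fold change of Il6st was -0.71 (SE 0.19, adjusted p in edgeR 0.0241), which puts the deficient livers at 61% of wild type (95% interval 45.7% to 81.4%). The call ended when deficient 1, 3, 4, wild type 3 or wild type 4 was left out (adjusted p = 0.0539, 0.059, 0.0509, 0.0793 and 0.061), while its fold change with any library left out stayed between -0.86 and -0.60.

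Lifr (ENSMUSG00000054263; chromosome 15, 7120095 to 7226970 on the plus strand) encodes the chain that pairs with gp130 to bind LIF. Its levels were 43.9, 105, 84.5 and 90.6 CPM in deficient libraries 1 to 4 and 125, 149.97, 256 and 139.7 CPM in wild-type libraries 1 to 4. Deficient 1 was lowest and wild type 3 far above the other wild-type libraries. Lifr fell by 1.05 (SE 0.29, edgeR adjusted p = 0.0257), to 48.4% of wild type (95% interval 31.4% to 74.4%). Without wild type 3 its fold change was -0.77 and did not pass (adjusted p = 0.0834), nor did it pass without deficient 3 (-1.07, adjusted p = 0.0611).

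The ligand-specific chains for IL-6 and oncostatin M did not pass. Il6ra (ENSMUSG00000027947; chromosome 3, 89771366 to 89820503 on the minus strand) encodes the IL-6 binding chain. It was at 44.9, 86.3, 53.2 and 57.3 CPM in deficient libraries 1 to 4, and wild-type libraries 1 to 4 had 54.5, 100.05, 114 and 97.5 CPM. Wild type 1 lay among the deficient libraries and deficient 2 near the wild-type ones. The log2 difference was -0.60 (95% interval -1.14 to -0.05, edgeR adjusted p = 0.11), and it passed when deficient 2 was left out (-0.82, adjusted p = 0.0352) and when wild type 1 was (-0.79, adjusted p = 0.0324).

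Osmr (ENSMUSG00000022146; chromosome 15, 6843058 to 6904450 on the minus strand) encodes the oncostatin M receptor chain. It was at 27.9, 35.2, 24.5 and 26.4 CPM in deficient and 38.6, 34.0, 30.3 and 30.1 CPM in wild-type libraries 1 to 4, with overlap. The log2 difference was -0.22 (95% interval -0.57 to 0.12, edgeR adjusted p = 0.345).

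Ratios within a library, which do not depend on scaling between libraries, were taken for 4 pairs of genes. Per length, Il6ra was at 0.357 to 0.601 of Il6st in wild-type and at 0.481 to 0.604 in deficient livers. The ratio of Osmr to Il6st was 0.0999 to 0.181 in wild-type and 0.158 to 0.239 in deficient livers. Lifr was at 0.573 to 0.949 of Il6st in wild-type and at 0.421 to 0.668 in deficient livers. All 3 receptor ratios overlapped between the groups, with log2 differences of 0.14, 0.50 and -0.33 for Il6ra, Osmr and Lifr. None passed an exact two-sided permutation test (p = 0.543, 0.114 and 0.2, or 0.543, 0.229 and 0.267 adjusted over the 4 ratios).

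Levels of Il6st, Lifr and Il6ra also varied together among libraries of 1 genotype. After group means were subtracted, log2 CPM over the 8 libraries correlated at 0.88 between Il6st and Lifr, 0.86 between Il6ra and Il6st and 0.74 between Il6ra and Lifr, and at -0.06 to 0.05 between Osmr and each of these chains. Such covariation was not particular to the receptor chains. The correlation was 0.94 between Il6ra and Steap4 and 0.84 between Il6st and Socs3. For other pairs it was absent or negative, at 0.00029 between Il6ra and Bcl3 and -0.44 between Il6st and Cebpd. These are descriptions over 8 libraries that share their depth and scaling. Deficient 1 was the lowest deficient library for 7 of the 10 genes and deficient 2 the highest for 6. The summed hepatocyte markers were also lowest in deficient 1, at 74923 CPM, and highest among deficient livers in deficient 2, at 105098 CPM. Among wild-type livers the sum was highest in wild type 2, at 126340 CPM, and lowest in wild type 4, at 113333 CPM. There Il6ra, Il6st and Lifr were lowest in wild type 1 and highest in wild type 3. The part of the hepatocyte markers in the receptor differences was not tested. In bulk liver, fewer cells of a type and less RNA per cell cannot be told apart.

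**Figure D2:**
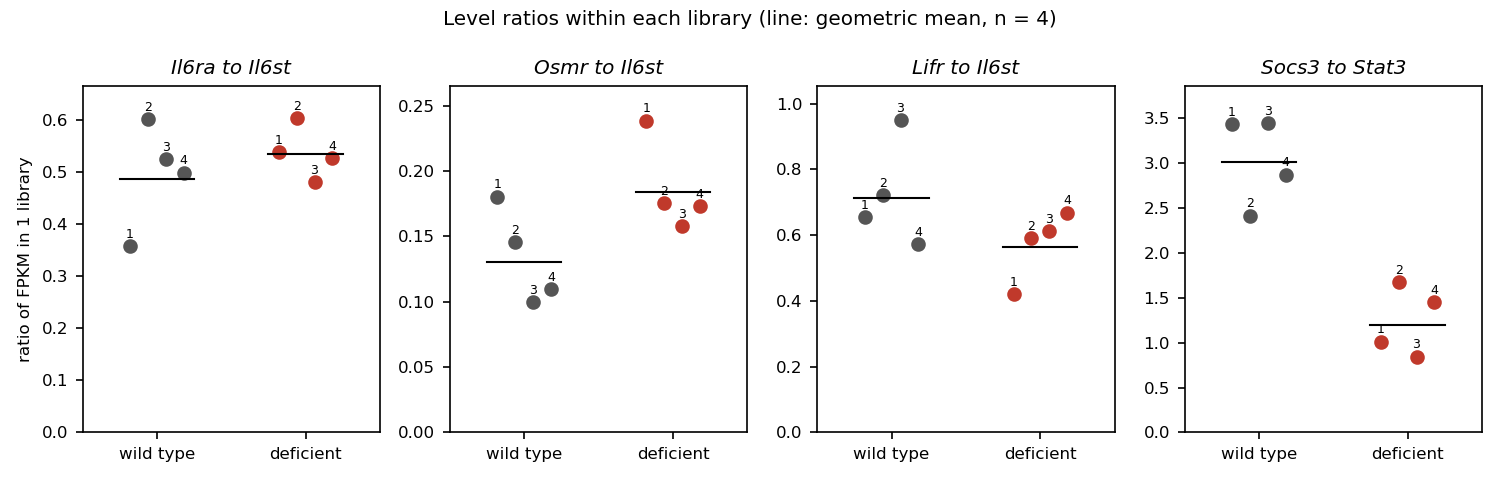
Ratio of FPKM between 2 genes within each library (vertical axes from 0) for Il6ra, Osmr and Lifr over Il6st and for Socs3 over Stat3, with wild-type livers in grey, P2X4R-deficient livers in red, the library number above each point and a line at the geometric mean. The groups overlap for the 3 receptor ratios and do not for Socs3 over Stat3.

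Stat3 (ENSMUSG00000004040; chromosome 11, 100775924 to 100830366 on the minus strand) is the transcription factor that these receptors activate, and it induces its own gene. Levels were 449, 636, 670.4 and 468 CPM in deficient libraries 1 to 4 and 610.3, 666, 681 and 715 CPM in wild-type libraries 1 to 4. Deficient 2 and 3 lay within the wild-type range, and deficient 1 and 4 below it. The log2 difference was -0.27 (95% interval -0.64 to 0.11, edgeR adjusted p = 0.298), which did not pass.

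The 5 targets split. Socs3 and Pim1 fell, Bcl3 did not pass, and Steap4 and Cebpd had estimates near 0. The part of the hepatocyte markers, whose sums did not overlap between the groups (74923 to 105098 and 113333 to 126340 CPM), in these differences was not tested. Socs3 (ENSMUSG00000053113; chromosome 11, 117856905 to 117860873 on the minus strand) encodes a protein that binds gp130 and JAKs and shuts the pathway off. It was at 138, 323, 171 and 206 CPM in deficient libraries 1 to 4 and at 636, 488, 712 and 623 CPM in wild-type libraries 1 to 4. Every deficient library was well below every wild-type library. The log2 fold change of Socs3 was -1.55 (SE 0.25, adjusted p in edgeR 0.00481), with the mean at 34.1% of wild type (95% interval 23.4% to 49.6%). Its adjusted p was at most 0.0184 over the 16 other settings tried.

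Relative to Stat3 in the same library, Socs3 was also lower. The FPKM ratio of Socs3 to Stat3 was 1.01, 1.68, 0.843 and 1.45 in deficient libraries 1 to 4 and 3.43, 2.42, 3.44 and 2.87 in wild-type libraries 1 to 4. The groups did not overlap, and the log2 ratio differed by -1.33. The exact two-sided permutation p was 0.0286, the smallest that 4 against 4 libraries can give. Adjusted over the 4 ratios it was 0.114, which did not pass. A ratio that alone reaches the smallest p cannot pass after this adjustment, so the adjusted value cannot decide here.

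Pim1 (ENSMUSG00000024014; chromosome 17, 29709727 to 29715086 on the plus strand) encodes a serine/threonine kinase that promotes survival and growth and is induced through STAT factors. Its levels were 41.03, 124, 63.1 and 127 CPM in deficient libraries 1 to 4 and 344, 164, 254 and 241 CPM in wild-type libraries 1 to 4. Deficient 2 and 4 were nearest to wild type 2, and no library crossed. The log2 fold change of Pim1 was -1.499 (SE 0.34, edgeR adjusted p = 0.014), or 35.4% of wild type (95% interval 21.1% to 59.4%), and it passed under all 16 other settings.

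Bcl3 (ENSMUSG00000053175; chromosome 7, 19542387 to 19556695 on the minus strand) encodes a nuclear member of the I-kappa-B family. It was at 75.7, 109, 73.3 and 128 CPM in deficient and 172, 125, 136 and 125 CPM in wild-type libraries 1 to 4. Only deficient 4 reached the wild-type range. The log2 difference was -0.53 (95% interval -0.98 to -0.08, edgeR adjusted p = 0.0887), and without deficient 4 it was -0.71 (adjusted p = 0.0426). Within genotypes Bcl3 varied with Pim1, at a correlation of 0.89 after group means were subtracted, and Socs3 with Pim1 at 0.83.

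Steap4 (ENSMUSG00000012428; chromosome 5, 8010457 to 8032213 on the plus strand) encodes a metalloreductase that inflammation induces. It was at 6581, 9386, 8095 and 7042 CPM in deficient and 5359, 9258, 9077 and 8473 CPM in wild-type libraries 1 to 4. Wild type 1 was the lowest of all 8 and deficient 2 the highest. The log2 difference was -0.05 (95% interval -0.48 to 0.38, edgeR adjusted p = 0.886), so a change beyond 0.48 in either direction lies outside the interval. Its sign was positive with library size alone and in the limma test on log2 FPKM.

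Cebpd (ENSMUSG00000071637; chromosome 16, 15705150 to 15708895 on the plus strand) encodes C/EBP delta, a transcription factor of the acute phase response. Levels were 127, 105, 75.8 and 155 CPM in deficient and 138, 109, 100.44 and 94.2 CPM in wild-type libraries 1 to 4. Deficient 4 was the highest and deficient 3 the lowest of all 8 libraries. The log2 difference was 0.07 (95% interval -0.41 to 0.54, edgeR adjusted p = 0.852), and it was -0.12 without deficient 4. Within genotypes Cebpd ran against Stat3, at a correlation of -0.87 after group means were subtracted, and with Bcl3, at 0.70.

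STAT proteins bind the palindrome TTCNNNGAA, so the RefSeq promoter windows (GRCm38.p6, 250 bases before to 50 after each start site) were searched for it and for the stricter TTCCNGGAA, which is contained in it. Both motifs read the same on either strand. Windows were found for 9 of the 10 genes, all but Cebpd, with 2 windows each for Lifr and Pim1, and those of Socs3 and Steap4 held 1 match each. Positions of these windows are on GRCm38.p6 and cannot be set against the gene positions of the deposited table, whose build is not given. Over all 32851 windows, 8.3% held TTCNNNGAA and 1.15% held TTCCNGGAA, or 9.55% and 1.35% of 27025 genes. The 2 stretches are shown because these genes share the motif and differ in response, with the motif in capitals.
Socs3, chr11:117969492-117969540, minus strand, -174 to -126 from the start site: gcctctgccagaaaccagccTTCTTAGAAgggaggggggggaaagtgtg
Steap4, chr5:7960336-7960384, plus strand, -136 to -88 from the start site: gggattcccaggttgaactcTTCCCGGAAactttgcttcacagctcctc
The Steap4 match also fits the stricter form and the Socs3 match does not. A match is a description of letters and not of binding, and the other 7 genes without these letters in the window may hold them elsewhere.

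The other genes of the pathway were taken from lists of ligands, other receptor chains, kinases, inhibitors, shedding factors, further STAT3 targets and acute phase proteins. Of 73 genes, 66 were tested, of which 14 fell and 7 rose, or 31.8% called against 19.9% of all genes tested. The lists were chosen with earlier results of these data known, so that share is a description. Their median log2 fold change was -0.026. Leaving out deficient 3 gave 7 that fell and 2 that rose, leaving out wild type 3 gave 9 and 2, and scaling by library size alone gave 14 that rose.

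Transcripts of the ligands were rare. Of 10 ligand genes 6 were tested and 3 fell, against 10.6% of all genes tested. Il6 was at 0.784, 0.683, 0.289 and 1.03 CPM in deficient libraries 1 to 4, from 13, 11, 5 and 18 reads, and at 5.38, 3.16, 3.17 and 0.897 CPM in wild-type libraries 1 to 4, from 85, 45, 48 and 14 reads. Wild type 4 lay within the deficient range. Il6 fell by 2.16 (SE 0.53, edgeR adjusted p = 0.018). Leaving out deficient 3 ended that call (-1.90, adjusted p = 0.051).

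Osm, which encodes oncostatin M, was at 1.03, 1.18, 0.521 and 1.21 CPM in deficient and 5.25, 4.92, 2.31 and 1.28 CPM in wild-type libraries 1 to 4. It fell by 1.80 (SE 0.47, edgeR adjusted p = 0.0226), but wild type 4 was only just above deficient 4, and the call was lost without deficient 3, wild type 1 or wild type 2 (adjusted p = 0.0629, 0.0527 and 0.057). Lif had 2.17, 2.42, 2.43 and 3.91 CPM in deficient and 10, 3.87, 6.20 and 4.49 CPM in wild-type libraries 1 to 4, and deficient 4 lay just above wild type 2. Lif fell by 1.17 (SE 0.33, edgeR adjusted p = 0.0303), a call that 5 of the 8 single-library omissions ended, those of deficient 1, 2 and 3 and wild type 1 and 3 (adjusted p = 0.0563 to 0.0768), as did limma on log2 FPKM at either pseudocount, 1 or 0.1 (adjusted p = 0.0708 and 0.0605).

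Kupffer cell markers, summed over 10 genes, ranged from 42.2 to 60.4 CPM in deficient and from 55.8 to 182 CPM in wild-type livers, with wild type 1 highest. Of 9 tested, all were lower and 3 fell, against 10.6% of all genes tested. The part of the Kupffer cell markers in the ligand differences was not tested. Wild type 1 also had the highest Il6, Osm and Lif levels of the 8 libraries. Neutrophil markers, summed over 10 genes, ranged from 95.2 to 183 CPM in deficient and from 27.8 to 103 CPM in wild-type livers. Of the 9 neutrophil markers tested, all were higher and 2 rose past the threshold, against 9.27% of all genes tested. Their median log2 fold change was 0.94. Ly6g, too low to test, had 16, 16, 9 and 12 reads in deficient libraries 1 to 4 and 3, 1, 1 and 0 reads in wild-type libraries 1 to 4. Il11, Clcf1 and Il27 did not pass (log2 differences -0.64, -0.21 and -1.71, adjusted p = 0.424, 0.771 and 0.144). Cntf, Ctf1 and Ebi3, at no more than 17 reads in any library, were not tested.

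Of the other receptor chains, Il11ra1 (log2 difference 0.09, adjusted p = 0.722) and Il27ra (0.77, adjusted p = 0.31) did not pass, and Cntfr and Il31ra were not tested. Reads of Il11ra1 may be shared with near-identical copies, so its count is uncertain.

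Among the kinases, Jak2 fell. It was at 21.2, 57.3, 22.4 and 40.5 CPM in deficient libraries 1 to 4 and 93.6, 83.8, 101 and 93.8 CPM in wild-type libraries 1 to 4. The deficient libraries varied more than the wild-type ones, and the groups were well apart. Jak2 fell by 1.39 (SE 0.28, edgeR adjusted p = 0.0095) and passed under all 16 other settings. Jak1, the main kinase of gp130, had a log2 difference of -0.54 (95% interval -1.01 to -0.08, adjusted p = 0.0907) and passed without deficient 2 (-0.73, adjusted p = 0.03). Tyk2 was at 0.14 (95% interval -0.38 to 0.65, adjusted p = 0.715).

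**Figure D3:**
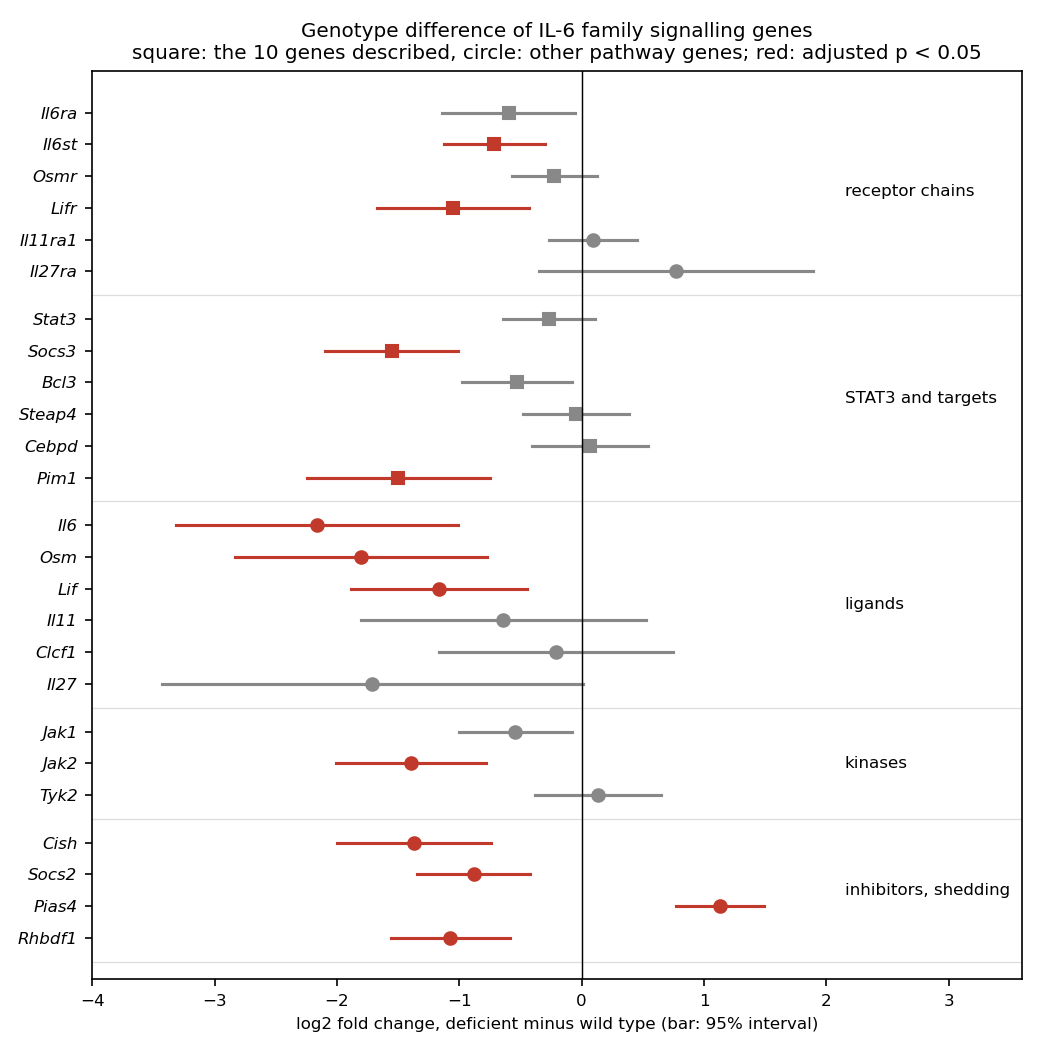
Log2 fold change, deficient minus wild type, with its 95% interval from the edgeR fit, for the 10 genes (squares) and other pathway genes (circles), grouped by role, in red where the adjusted p was under 0.05. Socs3, Pim1, Lifr, Il6st, Il6, Osm, Lif, Jak2, Cish, Socs2 and Rhbdf1 lie below 0 and Pias4 above it.

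Of 10 inhibitor genes 2 fell and 1 rose, against 10.6% and 9.27% of all genes tested. Cish, a SOCS family member best known downstream of STAT5, was at 15.2, 21.5, 7.87 and 23.1 CPM in deficient and 56.8, 33.9, 39.2 and 44.9 CPM in wild-type libraries 1 to 4. It fell by 1.37 (SE 0.29, edgeR adjusted p = 0.011). Socs2, also a STAT5 target, fell by 0.88 (SE 0.21), with means of 88.3 ± 21.0 CPM in wild-type and 47.9 ± 10.6 CPM in deficient livers (SD, n = 4).

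Pias4, which encodes a SUMO ligase of the family of STAT inhibitors, was higher in deficient livers. It was at 23.0, 25.9, 25.3 and 27.6 CPM in deficient and 9.74, 13.6, 9.89 and 13.3 CPM in wild-type libraries 1 to 4, with no overlap. Pias4 rose by 1.13 (SE 0.17, edgeR adjusted p = 0.00419). Of 5 genes for shedding of the IL-6 receptor and its control 1 fell, against 10.6% of all genes tested. It was Rhbdf1, which fell by 1.07 (SE 0.22). Its means were 24.8 ± 6.08 CPM in wild-type and 11.8 ± 2.73 CPM in deficient livers (SD, n = 4). Cish, Socs2, Pias4 and Rhbdf1 passed under all 16 other settings.

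Of 19 further STAT3 targets 6 fell and 2 rose, with a median of -0.11, against 10.6% that fell and 9.27% that rose of all genes tested. Myc, the growth regulator, was at 21.7, 82.9, 31.4 and 37.6 CPM in deficient and 154, 135, 179 and 138 CPM in wild-type libraries 1 to 4, and fell by 1.80 (SE 0.34, edgeR adjusted p = 0.00747). Pim3, a kinase of the same family as Pim1, fell by 1.14 (SE 0.28), with means of 609 ± 18.5 CPM in wild-type and 277 ± 123 CPM in deficient livers (SD, n = 4). Irf1 fell by 1.30 and Icam1 fell by 1.07, both genes that interferon or NF-kB signalling also induces. Neither passed without deficient 3 (adjusted p = 0.0537 and 0.0623) or wild type 3 (adjusted p = 0.0523 and 0.0556). The genes that rose, named after their values were seen, were Lrg1 (0.66, SE 0.19) and Pim2 (0.65, SE 0.19), the remaining kinase of the Pim family. The Lrg1 call ended when deficient 1, 3, 4 or wild type 3 was left out (adjusted p = 0.0513 to 0.0873), and that of Pim2 when any library but deficient 2 or wild type 1 was (adjusted p = 0.066 to 0.0973).

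Of 21 acute phase protein genes, 4 rose and 1 fell, with a median of 0.32. That is 23.8% called in either direction, near the 19.9% of all genes tested, of which 9.27% rose and 10.6% fell. A positive fold change was found for 17 of the 21, against 5679 of all 11380 genes tested. At an unadjusted edgeR p under 0.05, 9 were higher and 2 lower, against 1959 higher and 2047 lower of the 11380. Orm2 rose by 0.87 (SE 0.17), with means of 167 ± 20.7 CPM in wild-type and 306 ± 45.6 CPM in deficient livers (SD, n = 4), whereas Crp fell by 1.01 (SE 0.22, edgeR adjusted p = 0.0126). A2m rose by 1.44 (SE 0.37) and Lcn2 rose by 0.60 (SE 0.18). Without deficient 3 or wild type 3, neither A2m (adjusted p = 0.0593 and 0.058) nor Lcn2 (adjusted p = 0.0821 and 0.0924) passed, and Lcn2 also not without deficient 1, deficient 4 or wild type 4 (adjusted p = 0.064, 0.0714 and 0.0519).

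The genes with the most similar pattern over the 8 libraries were ranked by Pearson correlation of log2 CPM, as a description. For Socs3 the closest was Mideas (0.995, and 0.976 after group means were subtracted). For Pim1 they were H4c11 and Rel, which encodes an NF-kB subunit, both at 0.994 (0.983 and 0.986 after group means were subtracted). H4c11 was low, at a mean of 1.28 CPM over the 8 libraries. Kif1b was closest to Il6st (0.992), Igfals, which encodes a carrier protein of insulin-like growth factors, to Lifr (0.989), Ehd4 to Il6ra (0.997) and Hnrnpa1 to Bcl3 (0.984). After group means were subtracted these values were 0.974, 0.979, 0.995 and 0.985 in the same order. Apex1 was closest to Stat3 (0.98), Dhx36 to Cebpd (0.97), Rab6a to Steap4 (0.962) and Abracl to Osmr (0.947).

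**Figure D4:**
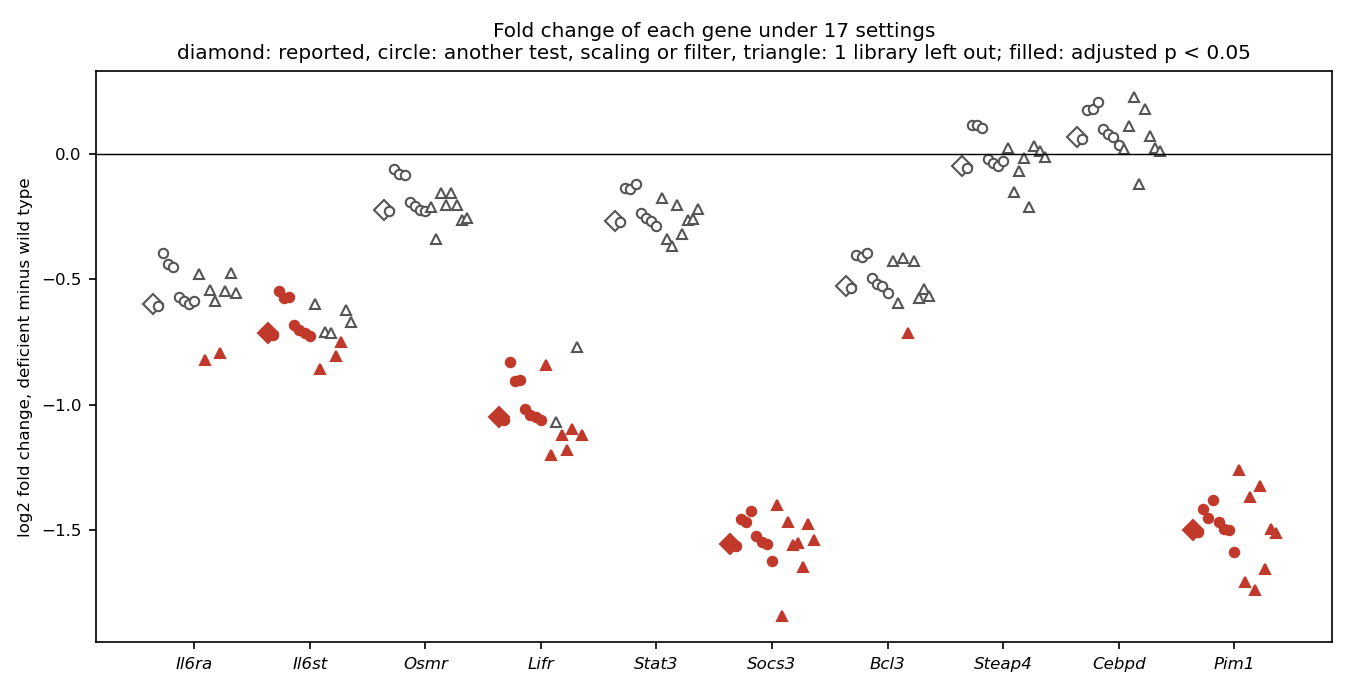
Log2 fold change of each of the 10 genes, deficient minus wild type, under the reported fit (diamond), 8 other tests, scalings, filters or designs (circles) and 8 fits with 1 library left out (triangles), filled red where the adjusted p was under 0.05. Socs3 and Pim1 are filled throughout, Il6st and Lifr are open in 5 and 2 of the triangles, and Steap4 lies on both sides of 0.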

How the data were processed

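RNA of mouse liver was sequenced in 8 libraries, 4 per genotype, and groups were taken from the genotype in the labels. Per the labels' protocols, polyadenylated RNA was selected and cDNA made with random primers. The submitters' processing notes name cutadapt and HISAT2 2.0.5. How reads were assigned to genes, on which annotation and build, and whether strand was used is not given in the sources used here, so reads of overlapping or antisense genes cannot be separated. Per the file headers, the deposited table lists, for each gene and library, a raw read count and FPKM as the authors computed it. Recomputed FPKM values were within 6.96e-05% of those listed.

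The counts were tested with edgeR 4.0.16 (R 4.3.3; quasi-likelihood test, TMM scaling, default expression filter, no covariate) over 11380 genes, and p-values were adjusted by Benjamini-Hochberg over all of them with a threshold of 0.05. Standard errors are the log2 fold change over the square root of F. Exact two-sided permutation tests over 70 assignments were used for 4 ratios. Alternatives were DESeq2 1.42.0, limma 3.58.1 (log2 FPKM, pseudocount 1 or 0.1), other scaling and filters, robust empirical Bayes, a replicate block and each library left out. On simulated data with 200 changed genes, the edgeR test recovered 43% of 2-fold and 96% of 4-fold changes, with 5 false calls. Differences of 2-fold or less may thus be missed. Pairs of libraries of 1 group differed by more than counting noise (chi-square per degree of freedom 21.5 to 109). Counts carry no molecular identifiers.

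The genes, the lists and the tests were chosen with earlier results of these data known. Named were P2rx4, the 10 genes, every ligand, other receptor chain and kinase, up to 4 called genes with the smallest p of each other pathway list, and the genes most alike each of the 10. Cebpb and Socs1 were added outside this rule. One of the listed ligands is not reported here. Markers of 8 cell types were also fixed. Of those not given in the report, summed levels in deficient and wild-type livers were 1855 to 3276 and 2033 to 2651 CPM for monocyte markers, 60.1 to 102 and 53.1 to 137 for endothelial, 155 to 271 and 259 to 416 for stellate, 29.9 to 42.5 and 29.9 to 59.1 for T and NK cell, and 44.1 to 154 and 197 to 235 for cholangiocyte markers. Nearly all of the monocyte sum was Fn1 (2387 CPM in wild-type and 2403 CPM in deficient livers). Of the 5 monocyte markers tested 4 had a positive fold change. Of these 1, Chil3, rose (1.24, edgeR adjusted p = 0.0461), against 9.27% of all genes tested. S100a4 had 0 reads in every library. The gap in the cholangiocyte sum was that of Sox9 (152 and 36.6 CPM), and the other 5 markers overlapped between the groups and did not pass. Gzmb was the largest part of the T and NK cell sum. Of 10 stellate markers 4 fell (Reln, Dcn, Ecm1 and Colec11) and 1, Hand2, rose, against 10.6% and 9.27% of all genes tested. Of 10 endothelial markers 2 fell, as did 1 of 5 T and NK cell markers tested, and 0 rose in either list.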

Additional observations from a re-analysis of the deposited data

Results flagged for a closer look

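Within a genotype, 6 of 80 groups of 4 values checked held a library far from the other 3, where chance flags about 1 in 20. Cebpb and Socs1, both flagged, were added to this check outside the rule by which genes were named. The count of 6 can therefore not be set against chance. None of the 10 genes was among them. Cebpb, which encodes C/EBP beta and belongs to the same factor family as Cebpd, was at 609 CPM in wild type 1 and at 6.05 to 10.3 CPM in the other wild-type libraries, while all deficient libraries had 329 to 523 CPM. Socs1, a feedback inhibitor of JAK kinases, was at 314 CPM in wild type 1 and 91.1 to 107 in the other wild-type libraries. Il27 was at 4.68 CPM in wild type 1 and 0.264 to 0.961 in the others. Irf1 was at 534 CPM in wild type 2 against 853 to 919 in the other wild-type libraries, and Icam1 at 406 CPM in wild type 2 against 540 to 565. Lif was at 3.91 CPM in deficient 4 against 2.17 to 2.43 in the other deficient libraries.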

How the results depend on the processing

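With any library left out, the number of genes called over the whole table ranged from 982 (without wild type 3) to 2388, with 1224 without deficient 3 and 1482 without deficient 1, that of the 10 genes that fell from 2 to 5, and those of pathway genes that rose and fell from 2 to 9 and from 7 to 18. The pathway genes that rose numbered 11 with DESeq2, 14 and 12 with limma on log2 FPKM with a pseudocount of 1 and 0.1, and 14 with library size alone. Library size alone moved the median of all genes by 0.145 on the log2 scale and the share of higher calls from 46.6% to 67.2%, and limma with a pseudocount of 1 moved them by 0.123 and to 66.3%. The log2 difference of Steap4 was then 0.10 with library size alone and 0.12 in both limma fits. With a library left out it ranged from -0.21 to 0.030, that of Cebpd from -0.12 to 0.23 and that of the ratio of Il6ra to Il6st from -0.011 to 0.24. Genes called with a replicate block numbered 1768, with 4 of the 10 genes lower, and of the genes named Lif, Lrg1 and Pim2 no longer passed (adjusted p = 0.0596, 0.051 and 0.0503). The replicate numbers do not pair the libraries, with correlations of same-numbered deviations of 0.13, -0.11, 0.074 and -0.11.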

Other observations

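The following check of spread was chosen after the Cebpb values were seen. They rested on 86, 139 and 161 reads in wild type 2, 3 and 4, against 9628 in wild type 1 and 5682 to 8850 in the deficient libraries. Its fold change was 1.45 on the log2 scale in all libraries (edgeR adjusted p = 0.406), and leaving out wild type 1 gave 5.65 (adjusted p = 1.1e-05). With all libraries kept, the Cebpb fold change also moved with the method, to 4.08 and 4.25 in the limma fits (adjusted p = 0.0277 and 0.0283) and 4.69 with a replicate block (adjusted p = 0.0334). Of 6421 genes at a mean of 10 CPM or more, 7 differed at least 20-fold among wild-type libraries (Cebpb, Dmbt1, Mup11, Mup17, Mup18, Ptp4a1 and Sult2a1) and 7 among deficient libraries. In wild type 1, where Cebpb and Socs1 were high, Steap4 was the lowest of the 8 libraries and Bcl3 and Pim1 were the highest.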
